A study of Mus musculus with 10 samples.

Results

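Ephrins and Eph receptors of the early cortex were followed through 10 genes, 6 receptors (Epha3, Epha4, Epha5, Epha7, Ephb1 and Ephb2) and 4 ligands (Efna2, Efna5, Efnb1 and Efnb2). They were chosen by name, and every probe whose single annotated gene symbol was one of them was taken. This gave 9 of the 21766 probes of the table, for 8 of its 15063 named genes, since Epha4 had 2 probes. The other 2 of the 10, Ephb1 and Ephb2, had no probe so annotated and are not analysed here. The study compared the rostral with the caudal end of the neocortex of mouse embryos at E11.5. Its 2 groups were C57, an inbred strain, and MF1, an outbred stock, both without any stated allele or treatment, a pairing meant to separate regional from strain-dependent variation. Each pool joined the tissue of 3 embryos of a single litter. Its rostral and caudal cDNA were amplified, given 1 dye each (Cy3 or Cy5) and put on the same array, and a second array carried the dyes the other way round. There were 2 C57 pools on 4 arrays and 3 MF1 pools on 6 arrays.

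Eph receptors are tyrosine kinases of the cell surface, and ephrins are their membrane-bound ligands. The A ephrins are held by a lipid anchor and mostly bind EphA receptors. The B ephrins cross the membrane, mostly bind EphB receptors and, unusually for ligands, also bind EphA4. Because both partners sit on cells, signals pass at contacts and can run into the receptor-bearing and the ligand-bearing cell. In the developing cortex the family is known for graded expression across the cortical sheet, for guiding thalamic axons and for roles in neural progenitors.

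The values are caudal to rostral log2 ratios with the median of each array set to 0, so a positive value means more caudal RNA relative to the other probes of that array. The deposited table does not name the numerator channel. It was read as Cy5 over Cy3, which is likely but not stated. Of 14 tested probes for genes with textbook gradients, 11 lay on their textbook side, some of them near 0, such as Fgf8 at -0.04. All 6 with an unadjusted limma p below 0.05 did so. These were both Nr2f1 probes and probes of Spry1, Etv1, Dusp6 and Etv5, so they are not 6 separate genes. The list was chosen with earlier results of these data known, so this is a limited check of the direction. Between 13723 and 20870 probes had a ratio on an array. The 2 dye orientations of a pool did not correlate positively across probes, apart from a Pearson r of 0.03 in the first C57 pool. In the other pools r was negative, down to -0.25. Arrays of different pools had a median r of 0.10 with the same orientation and of -0.07 with opposite orientations. The 5 pools had the same sign on both arrays for between 46.0% and 56.6% of the probes measured on both. Individual values therefore need both orientations beside them, and the number of arrays limits their precision. The ratios hold no level of expression, so the presence of cortical markers could not be checked as a level. Emx1 and Emx2, which mark cortical progenitors, had ratios of 0.06 ± 0.26 and 0.05 ± 0.14 (limma SE, 5 pools). In dissected tissue, fewer cells of a type and less RNA per cell cannot be told apart.

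Epha3 was the member with the largest caudal excess and Efnb2 the member with the largest rostral excess among the 6 members that could be tested. Epha3, a receptor for A ephrins, had a mean caudal over rostral log2 ratio of 0.96 ± 0.16 (limma SE, 5 pools), a 1.94-fold caudal excess. Efnb2, the gene of ephrin-B2, had a mean of -0.69 ± 0.15 (limma SE, 5 pools), a 1.62-fold rostral excess. Both signs held on all 10 arrays, in both dye orientations and in both strains. Neither passed the adjustment for 11855 probes.

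The sequences just upstream of these 2 genes are shown because they are the members whose ratios the results turn on. Each window covers the 250 bases before the RefSeq transcription start on GRCm38.p6, 5′ to 3′ on the gene's own strand. The capitals mark GGGCGG, the GC box, on either strand. The Epha3 window is chr16:63864176-63864425 on the minus strand and the Efnb2 window is chr8:8661243-8661492 on the minus strand.
Epha3: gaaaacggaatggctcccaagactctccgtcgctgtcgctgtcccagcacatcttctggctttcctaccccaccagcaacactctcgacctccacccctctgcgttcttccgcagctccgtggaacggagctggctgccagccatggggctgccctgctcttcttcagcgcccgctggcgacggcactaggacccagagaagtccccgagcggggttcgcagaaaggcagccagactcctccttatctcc
Efnb2: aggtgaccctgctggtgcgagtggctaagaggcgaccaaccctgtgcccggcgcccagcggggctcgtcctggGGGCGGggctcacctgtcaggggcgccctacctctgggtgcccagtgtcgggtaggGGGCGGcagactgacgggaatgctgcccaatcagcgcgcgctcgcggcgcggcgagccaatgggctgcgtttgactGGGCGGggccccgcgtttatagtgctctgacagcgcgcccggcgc
The Efnb2 window held 3 GC boxes and the Epha3 window none. The GC content was 72.0% for Efnb2 and 62.8% for Epha3. All 10 genes had an entry, 11 windows in all because Epha7 had 2 starts, and both Epha7 windows overlap. Their median GC content was 66.8%, against 52.4% over all 32851 windows. GGGCGG occurred in 7 of the 11 windows and in 32.7% of all windows. The ETS core GGAAGT occurred in 2 of the 11, those of Epha5 and Efnb1, and in 19.7% of all. The homeodomain core TAATTA occurred in the Epha5 window alone and in 4.84% of all. The nuclear receptor element AGGTCA occurred in 0 of the 11 and in 14.0% of all. Both strands were searched and no motif contains another. The arrays measured no binding at these windows, so the matches are descriptions of sequence.

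In the first C57 pool Epha3 gave 0.81 with caudal RNA in Cy5 and 0.62 with rostral RNA in Cy5. The second C57 pool gave 0.88 and 0.76 in the same order. The MF1 pools gave 0.74 and 1.08, then 1.12 and 0.66, then 1.56 and 1.73. All 10 values were above 0, and the third MF1 pool was the highest in either orientation. Averaged over both orientations, the C57 pools were at 0.71 and 0.82 and the MF1 pools at 0.91, 0.89 and 1.64. All MF1 pools were thus above both C57 pools, as for 6.02% of the 8924 tested probes complete in 5 pools. Without centring the strains overlapped, at 0.53 and 1.19 in C57 and 0.72, 0.98 and 1.76 in MF1. The largest gap between the 2 arrays of a pool was 0.46.

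The fit gave Epha3 a 95% interval of 0.56 to 1.36 and an unadjusted limma p of 0.0013, the rank 20 of 11855 probes. The Benjamini-Hochberg adjusted limma p was 0.706. By exact sign changes of the 5 pool values the two-sided p was 0.0625, the smallest that 5 pools allow. The C57 mean was 0.77 ± 0.25 (limma SE, n = 2; adjusted p = 1), and the MF1 mean was 1.15 ± 0.20 (limma SE, n = 3; limma adjusted p = 0.401). The difference, MF1 minus C57, was 0.38 ± 0.32, with a 95% interval of -0.42 to 1.18 and a limma adjusted p of 0.999. With arrays scaled to equal spread, the C57 mean was 1.22 and the difference -0.24. Without the third MF1 pool, the mean of both strains was 0.83 ± 0.13.

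Efnb2 gave -0.66 and -0.78 in the first C57 pool and -0.81 and -0.76 in the second, with caudal RNA in Cy5 first. The MF1 pools gave -0.22 and -0.20, then -0.72 and -1.10, then -0.70 and -0.88. All 10 values were below 0, and the first MF1 pool stood nearest to 0 in both orientations. Averaged over both orientations, the pools were at -0.72 and -0.78 for C57 and at -0.21, -0.91 and -0.79 for MF1, so the MF1 pools lay on both sides of the C57 pools. The largest gap between the 2 arrays of a pool was 0.38.

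The 95% interval of the Efnb2 mean ran from -1.07 to -0.32, with an unadjusted limma p of 0.00435 and the rank 66 of 11855. The Benjamini-Hochberg adjusted limma p was 0.731, and the exact two-sided sign-change p was again 0.0625. The C57 mean was -0.75 ± 0.23 (limma SE, n = 2; adjusted p = 1), and the MF1 mean was -0.64 ± 0.19 (limma SE, n = 3; limma adjusted p = 0.684). The difference between strains was 0.12 ± 0.30, with a 95% interval of -0.63 to 0.86 and a limma adjusted p of 0.999. Scaling the arrays to equal spread gave a C57 mean of -1.20 and a difference of 0.69.

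**Figure D1:**
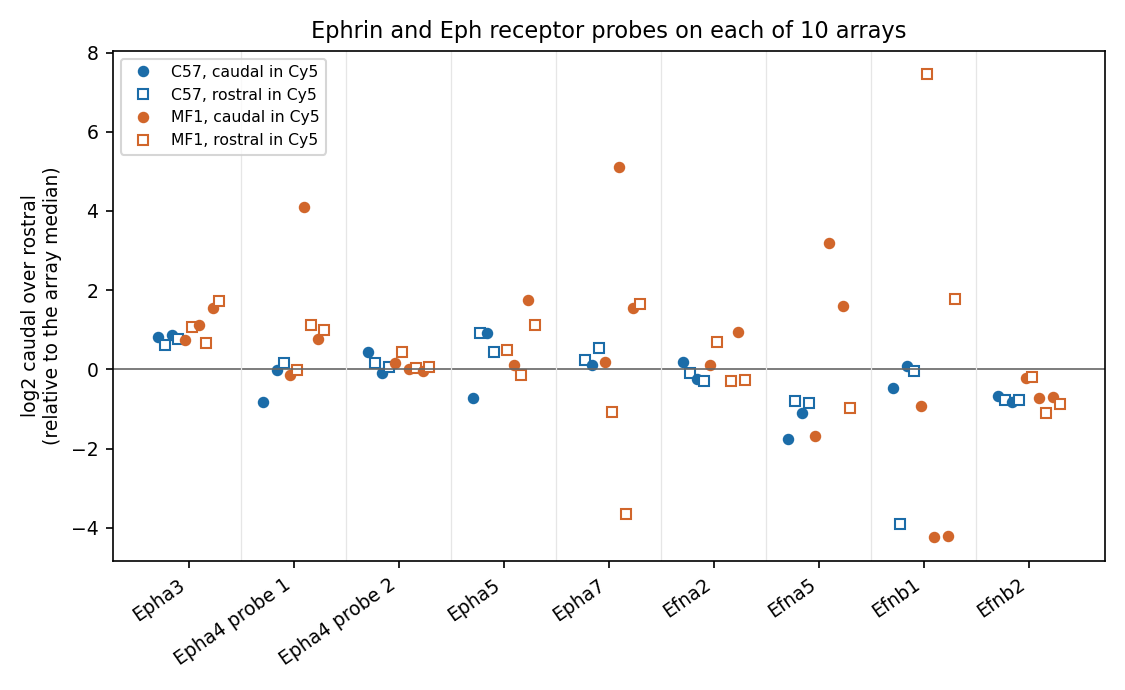
Centred log2 caudal over rostral of each of the 9 member probes on each of the 10 arrays, with C57 in blue and MF1 in orange, caudal RNA in Cy5 as filled circles and rostral RNA in Cy5 as open squares. All 10 Epha3 points lie above 0 and all 10 Efnb2 points below 0, while Efnb1 and Epha7 span both sides widely.

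The ratio of Epha3 over Efnb2 within an array does not depend on how the array is centred. Per pool, the log2 ratio of Epha3 minus that of Efnb2 was 1.43 and 1.60 in C57 and 1.12, 1.80 and 2.43 in MF1. Its mean was 1.68 ± 0.49 (SD, n = 5), a 3.2-fold difference, and single arrays lay between 0.96 and 2.60. Both genes were picked as the extremes of the tested members. Their opposite signs on every array already fixed the direction of this difference, so it is not a separate result.

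**Figure D2:**
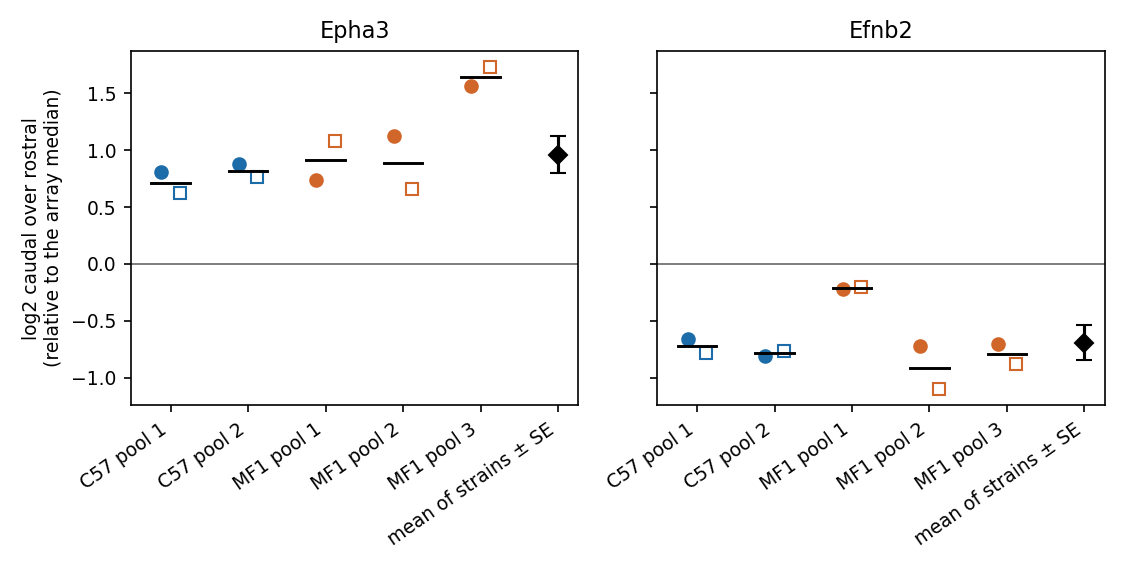
Pool values of Epha3 and Efnb2, centred log2 caudal over rostral, as bars, with each pool's arrays as filled circles (caudal RNA in Cy5) and open squares (rostral RNA in Cy5), C57 in blue, MF1 in orange, and the mean of both strains with its limma SE as a diamond. The Epha3 pools lie between 0.71 and 1.64 and the Efnb2 pools between -0.91 and -0.21, with no overlap.

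These counts were read against all probes. No probe had a limma adjusted p below 0.05 in the mean of both strains, in C57, in MF1 or in the strain difference, which is 0% of 11855 in each, and no member did. The smallest adjusted limma p over all probes was 0.321 for the mean of both strains, 1 for C57, 0.25 for MF1 and 0.999 for the difference. Unadjusted limma p values below 0.05 were found for 542, 218, 778 and 282 probes in the same order. For the mean of both strains, 1 of the 6 tested members, Epha3, was among the 2.28% of probes with an unadjusted p below 0.05 and caudal RNA higher. Efnb2 was the 1 member among the 2.29% with rostral RNA higher. In MF1 alone the shares of all probes were 3.25% caudal and 3.32% rostral, and in C57 alone 1.09% caudal and 0.751% rostral. Epha3 and Efnb2 had unadjusted limma p values of 0.00168 and 0.0172 in MF1 and of 0.024 and 0.0199 in C57, and the other 4 tested members had larger ones than 0.05 in each strain. For the strain difference 2.38% of all probes had an unadjusted p below 0.05, and none of the 6 tested members did. Among 8924 probes measured on all 10 arrays, 1.03% were above the array median on every array and 0.336% below it on every array. Of the 3 member probes so measured, Epha3 was among the first and Efnb2 among the second. The remaining one, the second Epha4 probe, was in neither.

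The other EphA receptors had ratios nearer 0 or a wider spread. Epha4, a receptor of both ephrin classes, had 2 probes that were read separately. Its second probe was measured on all arrays and gave 0.43 and 0.17, then -0.08 and 0.07 in the C57 pools. In the MF1 pools it gave 0.15 and 0.45, then 0.00 and 0.04, then -0.03 and 0.07. All of these values were close to 0, and the mean was 0.13 ± 0.13 (limma SE, 5 pools), with a 95% interval of -0.18 to 0.44 and a limma adjusted p of 0.98. The first Epha4 probe gave -0.82 on 1 array of the first C57 pool and no value on the other, then -0.01 and 0.17 in the second C57 pool. In MF1 it gave -0.15 and -0.01, then 4.09 and 1.13, then 0.77 and 1.0. It had a single complete C57 pool, so it was not tested. The 2 probes disagreed most in the second MF1 pool, where the first probe had a pool value of 2.61 and the second 0.02.

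Epha5, a high-affinity receptor of A ephrins, gave -0.72 and 0.91 in the first C57 pool and 0.91 and 0.45 in the second. In MF1 it gave 0.49 on the 1 measured array of the first pool, then 0.10 and -0.13, then 1.76 and 1.12. Its C57 and MF1 pool values overlapped, and the third MF1 pool was again the highest. The mean was 0.55 ± 0.29 (limma SE, 4 pools), with a 95% interval of -0.22 to 1.32 and a limma adjusted p of 0.98. The interval includes both 0 and the Epha3 mean. In the pools complete for both genes, Epha5 was at 0.09 and 0.68 in C57 and at -0.01 and 1.44 in MF1. In the same pools Epha3 was at 0.71 and 0.82 in C57 and at 0.89 and 1.64 in MF1, higher each time. The difference between these genes was not tested.

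Epha7, a further receptor of A ephrins, could not be tested, because a single C57 pool was complete. It gave 0.24 on the measured array of the first C57 pool and 0.12 and 0.53 in the second. The MF1 pools gave 0.18 and -1.08, then 5.10 and -3.66, then 1.55 and 1.64. The arrays of the second MF1 pool were thus 8.75 apart, and the average over all arrays was 1.74 with caudal RNA in Cy5 and -0.46 with rostral RNA in Cy5. The third MF1 pool was the highest complete pool for Epha3 (1.64), Epha5 (1.44) and Epha7 (1.60). The first Epha4 probe was at 0.88 there but at 2.61 in the second MF1 pool, and the second Epha4 probe was at 0.02. The spread of all probes also differed between arrays. Their median absolute deviation was 0.73 and 0.57 on the arrays of the third MF1 pool and 0.29 to 0.50 on the C57 arrays. Over the 5 EphA probes, 37 of 47 array values were above 0, the point set as the median of all probes of an array. Their median was 0.45. Epha3 supplied 10 of the 37, and values of the same array are not independent.

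The A ephrins had no shared direction. Efna2, the gene of ephrin-A2, gave 0.18 and -0.09, then -0.23 and -0.30 in the C57 pools. In MF1 it gave 0.11 and 0.70, then -0.28 on the 1 measured array of the second pool, then 0.94 and -0.26. The mean was 0.13 ± 0.14 (limma SE, 4 pools), with a 95% interval of -0.25 to 0.51 and a limma adjusted p of 0.98. The C57 pools, at 0.05 and -0.27, lay below the complete MF1 pools, at 0.41 and 0.34, as did 14.1% of the 2931 tested probes complete in 2 pools of each strain. The strain difference was 0.48 ± 0.29 (limma adjusted p = 0.999), and 0.26 with incomplete pools kept.

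Efna5, the gene of ephrin-A5, was negative on all 4 C57 arrays, at -1.75 and -0.80 in the first pool and -1.09 and -0.85 in the second. The MF1 arrays gave -1.68, then 3.18, each with no value in the other orientation, then 1.59 and -0.97. The MF1 values lay on both sides of 0. Efna5 had a single complete MF1 pool and was not tested. Over both A ephrins, 6 of 17 array values were above 0, with a median of -0.26.

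Efnb1, the gene of ephrin-B1, differed from Efnb2 in that its 2 orientations disagreed. It gave -0.48 and -3.91, then 0.09 and -0.04 in C57. In MF1 it gave -0.92 and 7.46, then -4.24 on the measured array of the second pool, then -4.21 and 1.77. Its average was -1.95 over arrays with caudal RNA in Cy5 and 1.32 over the others. The mean was -0.03 ± 0.84 (limma SE, 4 pools), with a 95% interval of -2.24 to 2.18, so neither direction nor the absence of a difference was resolved. Of the array values, 3 of 9 were above 0 for Efnb1, with a median of -0.48, and 0 of 10 for Efnb2, with a median of -0.74.

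**Figure D3:**
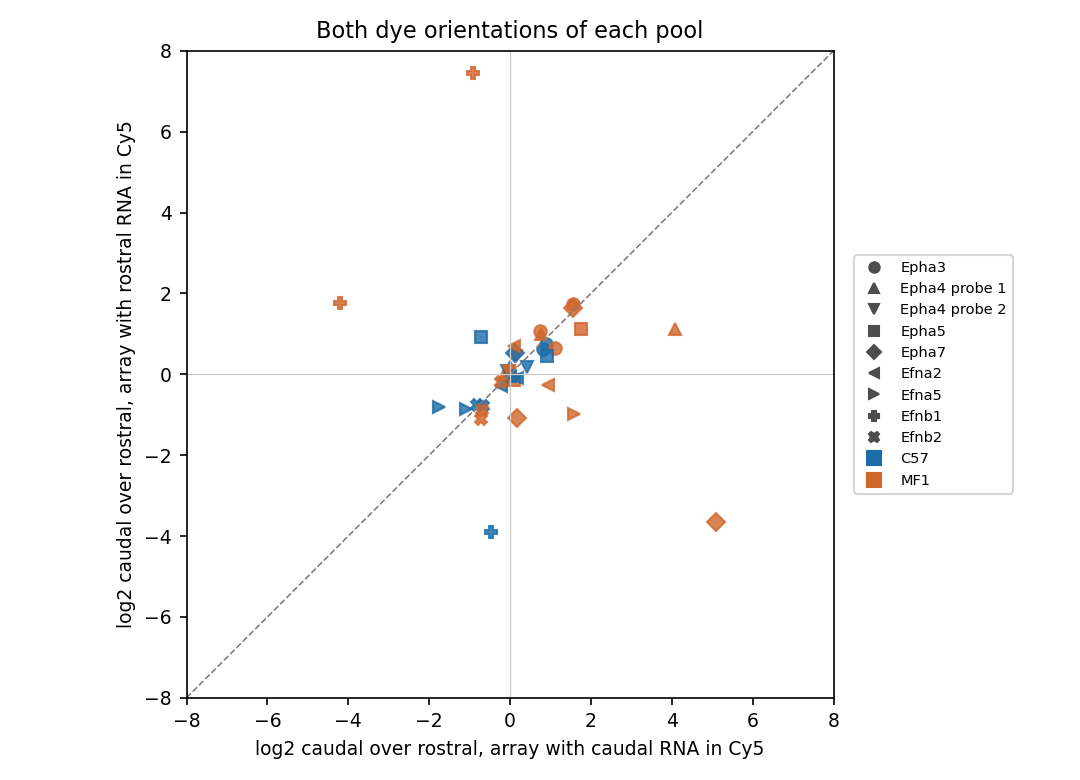
For each member and each pool measured in both orientations, the centred log2 caudal over rostral with rostral RNA in Cy5 against that with caudal RNA in Cy5; the dashed line marks equal values. Epha3 and Efnb2 lie near the line, and the points farthest from it are those of Efnb1 and Epha7.

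Across the 9 member probes, 38 probe and pool pairs had both orientations, and 25 of them had the same sign in both. Over all probes measured on both arrays of a pool, the share was 46.0% to 56.6% by pool. Epha3 and Efnb2, the extremes of the tested members, each supplied 5 of the 25, from 5 of 5 pools. Efnb1 had the same sign in 1 of 4. Over the 6 tested members, 4 means were positive and 2 negative. Of all 11855 tested probes, 7017 were positive and 4837 negative, so most probes were positive too. The members' median was 0.13, beside a median of 0.04 over all tested probes. By pool the members' median was 0.07 and 0.01 in C57 and 0.41, 0.00 and 0.18 in MF1.

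The rest of the family and its signalling partners showed smaller means than Epha3. Of 12 other ephrin and Eph receptor genes, 11 had a probe, and 6 of their 12 probes were tested. Their means lay between -0.08 and 0.50, 5 above 0 and 1 below, with a median of 0.25. The highest was Ephb4, a receptor of ephrin-B2 known from blood vessels, at 0.50 ± 0.18 (limma SE, 5 pools; unadjusted limma p 0.031, adjusted 0.98). Ephb4 pools were at 0.29 and 0.07 in C57 and at 0.29, 1.26 and 0.93 in MF1. Epha6 followed at 0.35 ± 0.23, and Efna1 alone was negative, at -0.08 ± 0.34. Of 32 partner genes, 29 had a probe and 28 of their 37 probes were tested. Of these, 16 were positive and 12 negative, with a median of 0.01, and 0 had an unadjusted limma p below 0.05. Their means lay between -0.70 and 0.65. The lowest, a Chn1 probe at -0.70 ± 0.49 (4 pools), was as far to the rostral side as Efnb2 but with a wider error. Another Chn1 probe was at 0.22 ± 0.14. The smallest p values belonged to Anks1 at 0.65 ± 0.30 and Adam10, a protease that sheds ephrins, at 0.35 ± 0.16 on the caudal side. On the rostral side they belonged to Rgs3, which binds B ephrins, at -0.58 ± 0.23 and to Abl2, a kinase, at -0.25 ± 0.13. Both had another tested probe, at -0.11 ± 0.17 for Rgs3 and, on the other side of 0, at 0.13 ± 0.23 for Abl2.

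**Figure D4:**
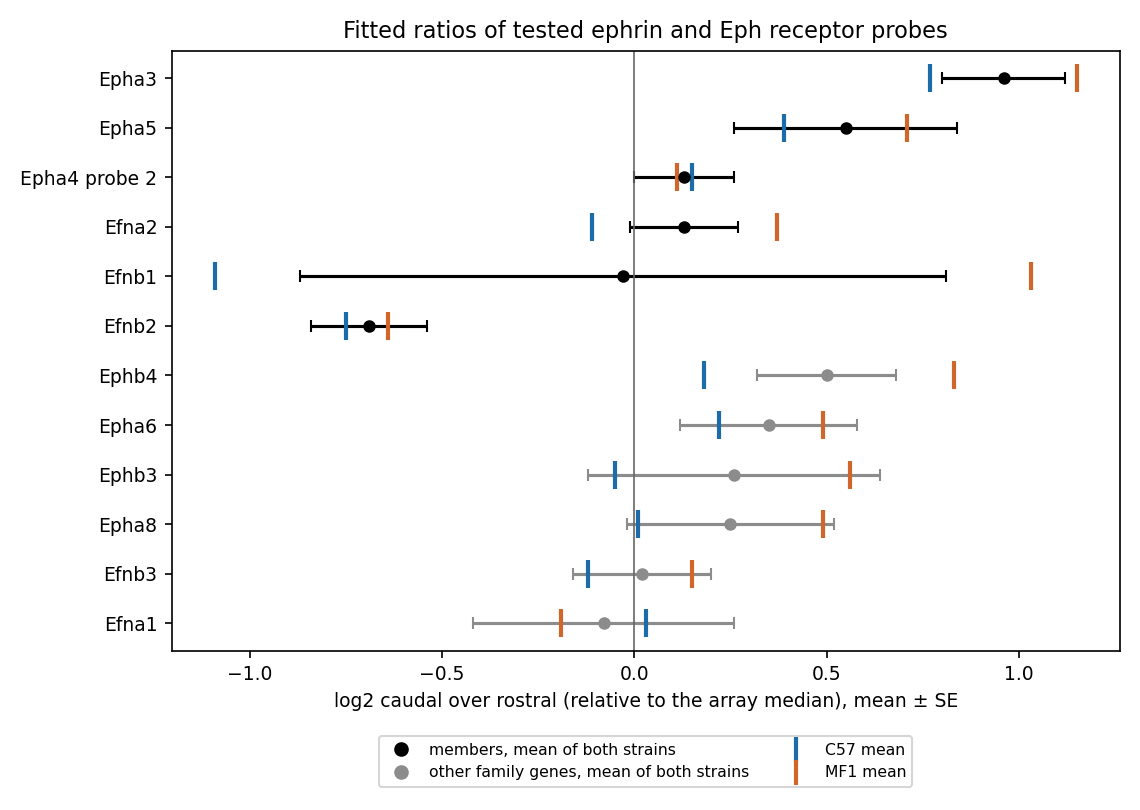
Fitted centred log2 caudal over rostral, mean of both strains with limma SE, for the 6 tested members (black) and the 6 tested probes of other family genes (grey), with ticks for the C57 and MF1 means. Epha3 at 0.96 and Efnb2 at -0.69 lie at the ends, and the Efnb1 bar is the widest.

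Several lists of markers of other tissues had medians away from 0, although no marker probe passed the adjustment, and their part in the member results was not tested. The 8 tested probes for ventral telencephalon, the tissue next to the cortex, had a median of -0.28, with 6 below 0 and with Dlx2 at -0.81 ± 0.15 and Dlx1 at -1.04 ± 0.27. Their median by pool was -0.22 and -0.08 for C57 and -0.58, -0.40 and -0.62 for MF1, beside Efnb2 at -0.72, -0.78, -0.21, -0.91 and -0.79. By strain, Dlx2 was at -0.04 in C57 and -1.59 in MF1, and Dlx1 at -0.38 and -1.70. Efnb2 was at -0.75 and -0.64 in the same order. Ebf1 of this list, named after its values were seen, was at -0.70 and -0.52 in the C57 pools and at -0.57 and -0.96 in the complete MF1 pools. The 2 ventral probes above 0 were that of Gsx2, at 0.11 ± 0.15, and an Lhx6 probe, at 0.31 ± 0.54 (4 pools). The 4 tested surface ectoderm probes were all below 0, with pool medians of -0.20 and -0.28 for C57 and -0.36, -0.66 and -1.67 for MF1. Its defining markers were Krt8, at -0.38 ± 0.27, and Krt18, at -1.54 ± 0.15 (4 pools). By strain, Krt8 was at -0.03 in C57 and -0.73 in MF1, and Krt18 at -0.38 and -2.71. Trp63 and Krt5, named after their values were seen, were at -0.85 ± 0.18 and -0.18 ± 0.16, and Krt5 had an MF1 mean of 0.07. On the caudal side, the 4 tested probes for cortical hem and choroid plexus were all above 0, with Ttr at 1.63 ± 0.16 and Wnt3a at 0.42 ± 0.13. By pool their median was -0.03 and 0.26 for C57 and 0.67, 0.41 and 1.01 for MF1, beside Epha3 at 0.71, 0.82, 0.91, 0.89 and 1.64. The 5 tested blood probes were all above 0, with a median of 0.42. The other lists had medians nearer 0. They were -0.10 for 7 endothelial probes, with 3 above 0 and Cdh5 at -0.15 ± 0.14, and 0.14 for 4 of meninges and mesenchyme. The 2 endothelial probes with an unadjusted limma p below 0.05, named after their values were seen, were on the caudal side, Esam at 1.01 ± 0.35 (4 pools) and Cldn5 at 0.36 ± 0.13. The medians were 0.06 for 7 of neurons, 0.05 for 5 of Cajal-Retzius neurons and 0.04 for 5 of diencephalon and eye. The Cajal-Retzius median joined opposite ratios, with 3 probes above 0 and 2 below. Its defining markers were Reln, at -0.68 ± 0.17 (4 pools), and Trp73, at 0.89 ± 0.33, both with an unadjusted limma p below 0.05. Among the neuron probes, 5 were above 0 and 2 below. Nhlh2 of that list, named after its values were seen, was at 0.57 ± 0.20 (unadjusted limma p 0.0312). The 8 cortical neuroepithelium probes had a median of 0.05, with 5 above 0.

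**Figure D5:**
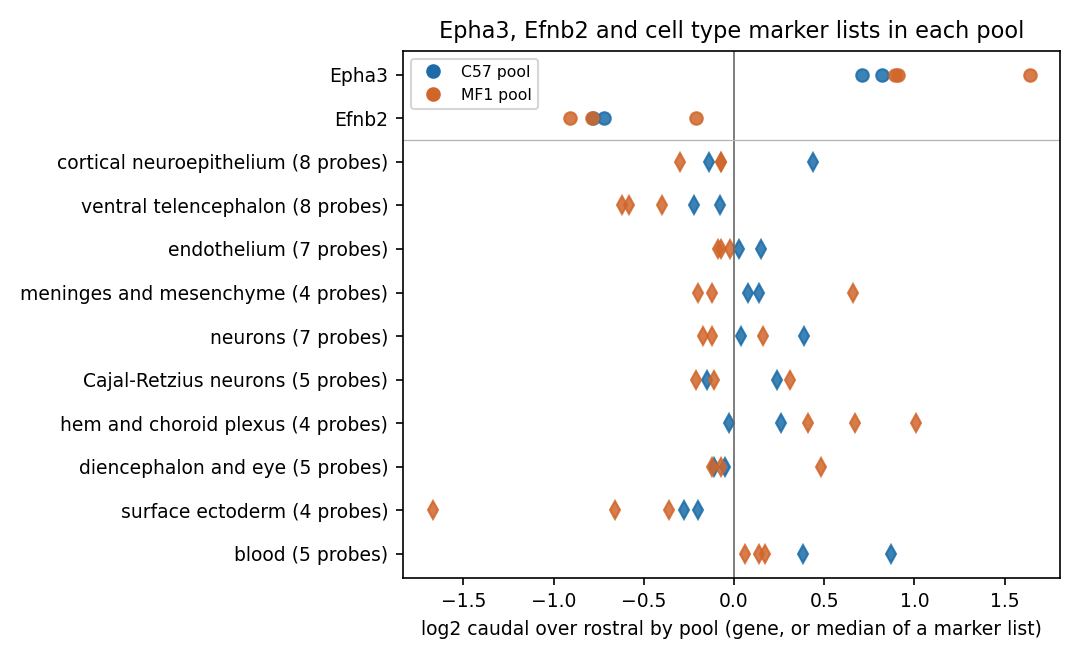
Median centred log2 caudal over rostral of each marker list in each of the 5 pools (diamonds; C57 blue, MF1 orange), with the pool values of Epha3 and Efnb2 as circles above them. The hem and choroid plexus list reached 1.01 and the surface ectoderm list -1.67 in the third MF1 pool.

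The genes with ratios most like these 2 members were sought among 7530 named probes measured on all 10 arrays, by the root mean square of the difference in log2 ratio over those arrays. Nearest to Epha3 were Rspo3, which encodes a secreted Wnt agonist, at 0.38, Ccnd2, which encodes cyclin D2, at 0.40, and Id3 at 0.41, against a median of 1.12 over all candidates. Nearest to Efnb2 were Stk39 at 0.16, Esm1 at 0.20 and Ptn, which encodes pleiotrophin, at 0.28, against a median of 0.89. As the nearest of all candidates, these probes lie below the median distance by selection, so the medians only give the scale. Single arrays lay between 0.44 and 1.55 for Rspo3, 0.01 and 1.72 for Ccnd2, and 0.05 and 1.27 for Id3. They lay between -1.11 and -0.10 for Stk39, -1.06 and -0.54 for Esm1, and -0.93 and -0.05 for Ptn.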

How the data were processed

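RNA of rostral and caudal neocortex was compared on 10 two-colour arrays. Per the labels, Trizol was used for extraction, cDNA was amplified and the dyes were exchanged on the second array of each pool. For the scanner, background correction and normalization, nothing is given in the labels or series text. The deposited values are log2 ratios, a unit read from the values; the submitters' direction and any centring are not stated. The design text speaks of 3 sets per strain, and a further C57 set is not analysed here.

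Ratios were turned by the dye labels so that caudal is the numerator and centred on each array's median. Turned medians ran from -0.45 to 0.67 before centring. The 436 values at a ceiling of 16.61 were taken as missing, and 232 control spots were left out. The 2 arrays of a pool hold the same RNAs and were averaged to 1 replicate. Tested probes had both orientations in 2 or more pools per strain. The fit used limma's lmFit and eBayes (version 3.58.1, R 4.3.3) on pool values, with strain as the factor. There were 2.58 prior and 3 residual degrees of freedom for a probe measured in all pools. Tests were two-sided, with Benjamini-Hochberg adjustment over 11855 probes and a threshold of 0.05. The p-values measure the spread between these pools. The procedure was run on simulated arrays whose noise was independent between arrays. It therefore did not test a spread shared by the 2 arrays of a pool.

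In the platform annotation, 16632 of 21766 probes had 1 symbol, 139 had several and 4995 had none; 15952 matched the RefSeq genes of GRCm38.p6 by identifier. Upstream sequences are RefSeq's. All member probes were named. Of the family and partner lists, the 2 tested probes of smallest p in each direction were named, as were the first 2 markers of some lists and the 3 nearest probes. Further markers, gradient genes, the Chn1 probes and the other probes of Rgs3 and Abl2 were named after their values were seen. The members and lists were chosen with earlier results of these data known, and the motifs were chosen after the values were seen. Alternatives covered centring, scaling, the probe filter, the dye orientations, the variance model and leaving out each pool. Figures were drawn with matplotlib 3.10.9.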

Additional observations from a re-analysis of the deposited data

Results flagged for a closer look

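The pools of both strains complete for a member probe, 5 for Epha3 and Efnb2, were read as 1 group. Every member probe with at least 4 such pools was checked. The nominal rate at which chance sets apart an extreme pool is about 1 in 20 such groups. That rate assumes a single group, and the share over all probes was not computed. Epha3 in the third MF1 pool, at 1.64, stood apart from the other 4 pools, which lay between 0.71 and 0.91. Its gap to the next pool was 0.79 of the whole range. Efnb2 in the first MF1 pool, at -0.21, stood apart from the other 4 pools, which lay between -0.91 and -0.72. Its gap to the next pool was 0.73 of the whole range.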

How the results depend on the processing

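The Epha3 mean stayed between 0.83 and 1.10 and the Efnb2 mean between -0.85 and -0.62 over 18 alternatives, and neither changed sign. Their limma adjusted p ranged from 0.057 to 1 and from 0.113 to 1. Scaling the arrays to 1 median absolute deviation gave 1 probe past the adjusted threshold for the mean of both strains and 2 for C57. Fitting arrays singly with a dye term gave 8 and 2. The probes with an unadjusted limma p below 0.05 ranged from 243 to 1652 for the mean (542 as reported), 129 to 636 for C57 (218), 420 to 2280 for MF1 (778) and 141 to 1286 for the difference (282). Without centring, 1 tested member probe was negative and Efnb1 was 0.00. With the probes measured on all arrays alone, 2 member probes were positive and 1 negative. With 1 pool left out, 2 to 7 member probes were positive and 1 to 2 negative, with a median of 0.13 to 0.50, since the tested probes change with the pools. Rostral RNA in Cy5 alone gave 1.32 for Efnb1 and -0.07 for Efna2, and with 1 pool left out Efnb1 ran from -0.59 to 0.53 (0.53 without the first C57 pool). The strain difference turned with scaling for Epha3 (-0.24) and Epha5 (-0.18), with rostral RNA in Cy5 alone for Epha5 (-0.19) and the second Epha4 probe (0.06), and with caudal RNA in Cy5 alone for Efnb1 (-2.92). For that Epha4 probe it was 0.61 with the gene's probes averaged and ran from -0.19 to 0.12 with 1 pool left out (0.12 without the first C57 pool, 0.01 without the second or the third MF1 pool). For Efnb2 it ran from -0.10 (without the first MF1 pool) to 0.25. The pool numbers name different litters, and same-numbered pools deviated with correlations of 0.15 and -0.02; with the number as a replicate block, the second Epha4 probe's difference was 0.01, Epha3's 0.14 and Efnb2's 0.19. The causes of these changes were not tested.

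Amplified cDNA, weak or negative correlation between dye orientations and 5 pools limit the precision. Leaving out a C57 pool leaves 1, which is assumed to vary like the MF1 pools.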
